A study of Rattus norvegicus with 18 samples.

Results

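Fos, Jun, Junb and Egr1 are immediate early genes, and their RNA was followed here in the retina of 18 rats. They were taken by gene number as 4 rows of the 32623 genes in the deposited tables: Fos (ENSRNOG00000008015), Jun (ENSRNOG00000026293), Junb (ENSRNOG00000042838) and Egr1 (ENSRNOG00000019422). The choice was made with earlier results of these data known. All 4 genes were found and all 4 passed the filter on low counts, with a lowest count of 129 in any library. Retinae came from male Wistar rats that were 8 weeks old when the study began. The 6 NC rats were healthy controls of the same age. The 6 DC rats had been made hyperglycemic with streptozotocin (STZ), a toxin that destroys the insulin-producing beta cells, given into a vein at 35 mg/kg. The 6 DC + Lixi rats received STZ as well, and then lixisenatide under the skin at 150 µg/kg on 5 days a week. Lixisenatide is an agonist of the receptor for glucagon-like peptide 1. NC and DC carry the treatment label placebo. Retinae were collected after 12 weeks of hyperglycemia, and each library is the whole retina of 1 animal, named below by its number. STZ models the lack of insulin and not the genetic background of human diabetes.

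Immediate early genes are switched on within minutes of a stimulus by transcription factors that are already present in the cell, without new protein synthesis. Growth factors, depolarization, light, injury and stress all act on them, through MAP kinases, calcium and cAMP. Fos, Jun and Junb encode subunits of AP-1, a dimeric transcription factor. Fos cannot pair with itself and binds DNA together with a Jun protein, while Jun is the strongly activating partner and Junb the weaker one, which can hold Jun back. Egr1 is a zinc finger transcription factor that binds GC-rich sites. In the retina these genes are known as markers of neuronal and glial activation, with Egr1 answering to light and Jun being linked to the injury response of ganglion cells.

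The start regions of Junb and Egr1 are shown because the letters by which such genes are switched on lie there. Both are RefSeq windows of the rat build GRCr8, each 300 bases long, from 250 bases before to 50 after the start of the gene, on the plus strand. Of the 4 genes, 2 were matched in the RefSeq promoter table. The Junb window is chr19:40080876-40081175 and the Egr1 window is chr18:26736828-26737127. Capitals mark matches to the CArG box, to the CRE core and to the TATA box.
Junb: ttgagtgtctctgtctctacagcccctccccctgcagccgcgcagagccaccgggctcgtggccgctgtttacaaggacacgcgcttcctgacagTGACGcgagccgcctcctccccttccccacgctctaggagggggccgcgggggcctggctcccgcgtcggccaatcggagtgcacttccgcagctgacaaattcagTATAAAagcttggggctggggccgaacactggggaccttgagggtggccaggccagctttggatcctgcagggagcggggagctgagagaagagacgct
Egr1: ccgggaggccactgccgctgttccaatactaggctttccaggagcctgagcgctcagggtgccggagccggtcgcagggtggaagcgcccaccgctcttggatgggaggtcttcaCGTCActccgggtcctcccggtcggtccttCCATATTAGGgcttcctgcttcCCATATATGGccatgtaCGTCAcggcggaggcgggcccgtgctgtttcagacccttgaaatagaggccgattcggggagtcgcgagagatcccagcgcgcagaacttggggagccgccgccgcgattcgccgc

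The Egr1 window held 2 CArG boxes, the motif bound by serum response factor, which began 105 and 83 bases before the start. Only 1.64% of the 33469 rat promoter windows of this length held a CArG box. It also held 2 CRE cores on the minus strand, 135 and 66 bases before the start. The CRE core was searched as TGACG, the first letters of the full cAMP response element TGACGTCA, so every full element also counts as a core. The core was found in 21.2% of windows and the full element in 1.83%, and neither gene's window held the full element. The Junb window held 1 CRE core 155 bases, 1 TATA box (TATAAA, in 14.2% of windows) 49 bases and 1 CCAAT box 85 bases before the start, and no CArG box. The CCAAT box, found in 37.5% of windows, was also present in the Egr1 window. Neither window held a GC box (GGGCGG, 33.1%), a STAT site (TTCNNNGAA, 8.87%), an AP-1 site (TGANTCA, 7.33%) or an EGR site (GCGNGGGCG, 4.98%). Both strands were searched. A match is a description of letters and not of binding.

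Libraries held 49487399 to 68360387 alignments and 28311638 to 39131627 counts. DC 425 had the fewest alignments and DC + Lixi 401 the most. The RNA integrity number (RIN, a score of how intact the RNA is) was 8.6 to 8.9 in NC, 9.2 to 9.5 in DC and 8.4 to 9.4 in DC + Lixi. NC and DC did not overlap in RIN, so that RIN and hyperglycemia cannot be told apart in full. The RNA concentration also differed, with medians of 290 ng/µl in NC (212 to 541), 525 in DC (486 to 596) and 610 in DC + Lixi (397 to 745). Its part in the levels was not tested. The count table was empty in 2 of the 72 cells of these genes, Jun in NC 433 and Egr1 in DC + Lixi 401. Those counts were restored from FPKM as 8598 and 4187, and the same step missed the known counts of Jun by at most 0.000275% and those of Egr1 by at most 0.00146%. The markers of retinal cell types were not checked, since no table used here pairs the other gene numbers with symbols.

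Against NC, DC retinae held more Fos and Junb RNA and less Jun RNA, and the higher mean of Egr1 did not pass the test. Of the 4 genes 3 were called in DC vs NC, 2 higher and 1 lower, where a call is an adjusted p under 0.05 in edgeR over the 16524 genes tested. Once RIN was added as a covariate, none of the 3 was called (edgeR adjusted p = 0.104 for Fos, 0.242 for Jun and 0.165 for Junb), and edgeR called 0 genes in all, with 2402 at an unadjusted p under 0.05. Among all genes tested without the covariate, 9.36% were called higher and 6.69% lower in this comparison. In DC + Lixi vs NC, 2 of the 4 were called, both higher, where 0.950% of all genes were called higher and 0.587% lower. Between DC + Lixi and DC none of the 4 was called. The first and the second comparison share the 6 NC libraries. In whole retina, fewer cells of a type and less RNA per cell cannot be told apart.

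**Figure D1:**
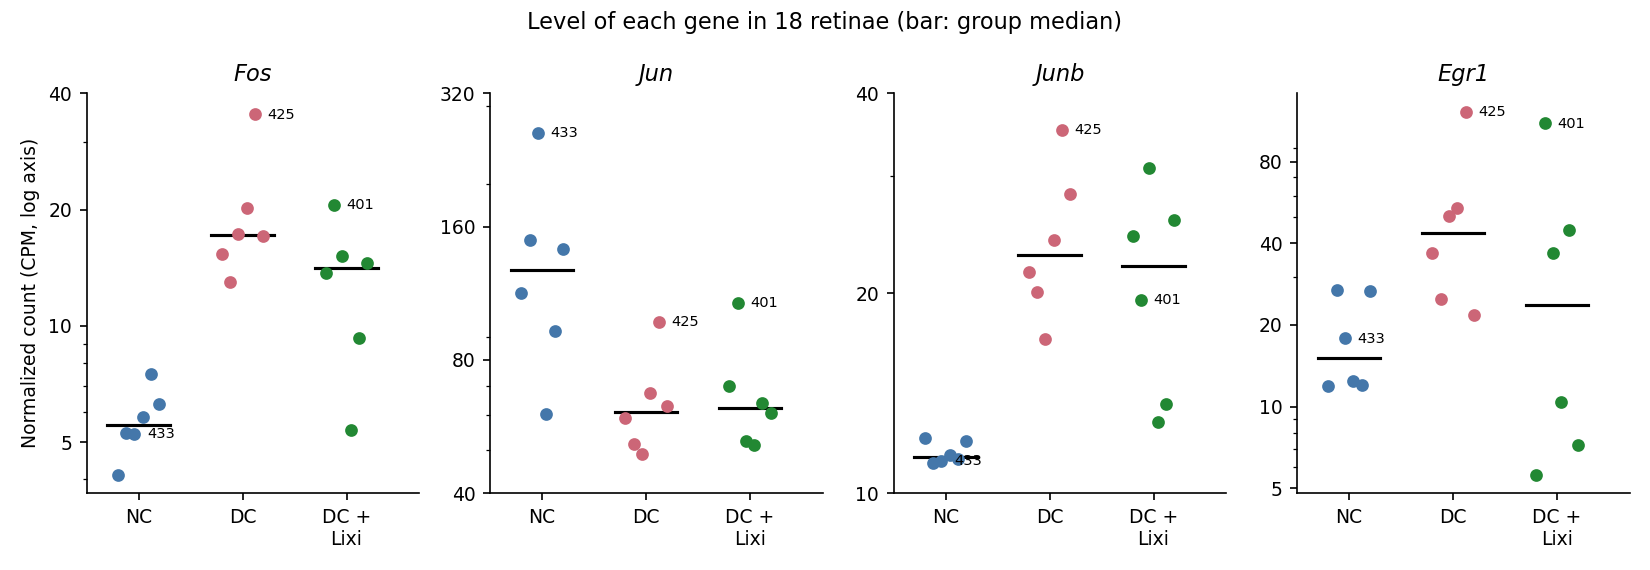
Normalized count (CPM, counts per 1e6 counts of the scaled library, log axis) of Fos, Jun, Junb and Egr1 in each of the 18 retinae, with 1 point per animal and a bar at the group median. All 6 DC points lie above all NC points for Fos and Junb, DC 425 is the highest DC animal for all 4 genes, and the 6 DC + Lixi points of Egr1 run from 5.60 to 111 CPM.

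Fos, the AP-1 subunit that needs a Jun partner, had normalized counts (CPM, counts scaled to the library size) of 4.10 at the lowest, 5.54 at the median and 7.51 at the highest in the 6 NC animals. The DC animals held 13.0, 17.2 and 35.3 CPM on the same measures. In DC + Lixi the values were 5.37, 14.1 and 20.6 CPM. Every DC animal lay above every NC animal, a separation in this direction that 3.99% of all genes tested showed. DC 425 held the highest level, while the next DC animal held 20.3 CPM. In DC + Lixi, 5 of 6 animals lay above all NC animals, and animal 418 lay inside the NC range.

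Mean Fos was 5.70 ± 1.14 CPM in NC, 19.7 ± 8.00 in DC and 13.1 ± 5.24 in DC + Lixi (SD, n = 6 each). Fos rose 3.45-fold in DC vs NC (log2 fold change 1.79, SE 0.28, 95% interval 1.21 to 2.36, edgeR adjusted p = 0.00135). Only 0.545% of all genes tested had a higher fold change. Fos was 2.30-fold higher in DC + Lixi vs NC (log2 1.20, SE 0.27, edgeR adjusted p = 0.0389). The call in DC + Lixi vs NC was lost in 6 of 13 other settings and in 10 of 18 fits that left out 1 library (each of the 6 NC animals, DC 386, and DC + Lixi 388, 403 and 428), with log2 fold changes from 0.91 to 1.36 over all of these. In these 10 fits 27 to 179 genes of the whole table were called in this comparison, against 254 with all libraries. Fos in DC + Lixi was 0.666 times its level in DC (95% interval 0.455 to 0.977), with an unadjusted p of 0.0387 and an edgeR adjusted p of 0.375, so that no difference was called.

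Jun, the main partner of Fos, ran the other way. Its normalized counts in NC were 60.5 at the lowest (animal 437), 128 at the median and 260.5 at the highest (animal 433, the restored value). DC animals held 49.1, 60.9 and 97.3 CPM. DC + Lixi animals held 51.4, 62.4 and 107.8 CPM. The groups overlapped, with 3 DC and 2 DC + Lixi animals below all NC animals. DC 425 and DC + Lixi 401, the animals with the highest Fos of their groups, also held the highest Jun of their groups.

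Mean Jun was 136 ± 68.9 CPM in NC, 64.6 ± 17.4 in DC and 67.7 ± 20.8 in DC + Lixi (SD, n = 6 each). Jun was 2.11-fold lower in DC vs NC (95% interval 1.42 to 3.15, log2 fold change -1.08, SE 0.27, edgeR adjusted p = 0.0142), and 0.436% of all genes had a lower fold change. Without NC 433 the log2 fold change was -0.79 and Jun was still called (edgeR adjusted p = 0.0334), whereas with the empty count of NC 433 read as 0 it was -0.53 (adjusted p = 0.622). The difference between DC + Lixi and NC was of similar size, 2.01-fold lower (95% interval 1.36 to 2.99), but its edgeR adjusted p was 0.0651. It passed with DESeq2 (adjusted p = 0.0199), without DC + Lixi 401 (adjusted p = 0.0280), without NC 437 (adjusted p = 0.0363) and without DC 425 (adjusted p = 0.0497), within a range of 0.0159 to 0.753 over all settings. DC + Lixi and DC differed in Jun by a factor of 1.05 (95% interval 0.707 to 1.56, edgeR adjusted p = 0.936). The interval therefore runs from a 1.42-fold lower to a 1.56-fold higher level.

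Junb, the AP-1 subunit that can restrain Jun, had the tightest NC values of the 4 genes. They were 11.1, 11.3 and 12.1 CPM at the lowest, the median and the highest. In DC they were 17.1, 22.8 and 35.3 CPM, and in DC + Lixi 12.8, 21.995 and 30.9 CPM. All 6 DC and all 6 DC + Lixi animals lay above every NC animal. A separation from NC in this direction was shown by 3.99% of all genes for DC and by 0.902% for DC + Lixi. The DC + Lixi values fell apart into 4 animals between 19.6 and 30.9 CPM and animals 418 and 419 at 12.8 and 13.6 CPM, close to NC.

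Mean Junb was 11.5 ± 0.426 CPM in NC, 24.4 ± 6.53 in DC and 21.2 ± 7.15 in DC + Lixi (SD, n = 6 each). Junb rose 2.12-fold in DC vs NC (log2 fold change 1.08, SE 0.20, 95% interval 0.67 to 1.49, edgeR adjusted p = 0.00239), with 1.90% of all genes higher. It was 1.84-fold higher in DC + Lixi vs NC (log2 0.88, SE 0.20, edgeR adjusted p = 0.0389). As for Fos, this call was lost without any 1 of those 10 libraries, and in 5 of 13 other settings. The edgeR adjusted p of Fos and Junb in this comparison ran between 0.0171 and 0.0959 in the fits without 1 library. Against DC, Junb in DC + Lixi was 1.15-fold lower (95% interval from 1.52-fold lower to 1.15-fold higher, edgeR adjusted p = 0.689).

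Egr1, the zinc finger factor, had the widest ranges of the 4 genes in DC and DC + Lixi. Its NC animals held 12.0, 15.1 and 26.9 CPM at the lowest, the median and the highest. DC animals held 21.9, 43.5 and 122 CPM, and 4 of 6 lay above all NC animals. The highest, DC 425, stood far from the next DC animal at 53.8 CPM. DC + Lixi animals ran from 5.60 (animal 388) over a median of 23.7 to 110.6 CPM (animal 401, the restored value), a 19.8-fold range. No DC + Lixi animal lay inside the NC range, since 3 were above it and 3 below.

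Mean Egr1 was 17.97 ± 7.17 CPM in NC, 51.6 ± 36.9 in DC and 35.9 ± 40.1 in DC + Lixi (SD, n = 6 each). In DC vs NC it was 2.87-fold higher (log2 fold change 1.52, SE 0.61, 95% interval 0.25 to 2.79), with an unadjusted p of 0.0217 and an edgeR adjusted p of 0.0952, which did not pass. A fold change this high or higher was found in 0.859% of all genes. Without DC 425 the log2 fold change was 1.06. When the fit held the NC and DC libraries alone, the adjusted p was 0.0217, and without DC + Lixi 401 it was 0.0482 (edgeR, range over all settings 0.0217 to 0.791). In DC + Lixi vs NC, Egr1 was 2.01-fold higher (95% interval from 1.20-fold lower to 4.82-fold higher, edgeR adjusted p = 0.379), and without DC + Lixi 401 the log2 fold change of 1.00 fell to 0.22. Against DC it was 1.43-fold lower (95% interval from 3.35-fold lower to 1.64-fold higher, edgeR adjusted p = 0.747).

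**Figure D2:**
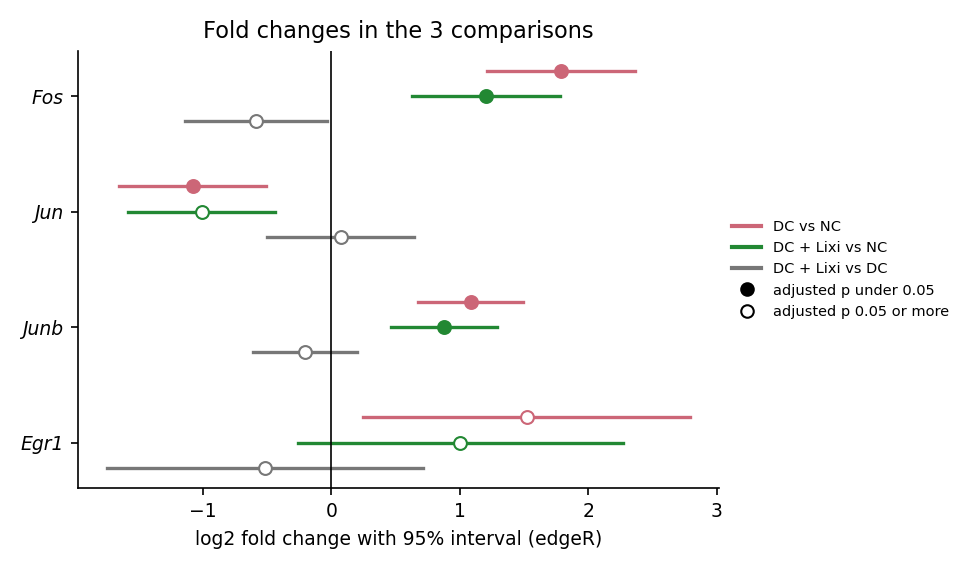
Log2 fold change (points) with its 95% interval (lines) for each gene in DC vs NC, DC + Lixi vs NC and DC + Lixi vs DC, from 1 edgeR fit over 18 libraries, with filled points where the adjusted p was under 0.05. Fos and Junb lie to the right of 0 and Jun to the left in both comparisons with NC, and all 4 points of DC + Lixi vs DC are open.

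The comparison of DC + Lixi with DC asks whether treated retinae differ from untreated diabetic ones. It called 0% of all genes higher and 0% lower with edgeR, although 2048 of 16524 genes had an unadjusted p under 0.05. DESeq2 called 100 genes, limma-voom called 0, and none of the 4 immediate early genes was called by any of them. On the log2 scale, with 0 at the NC mean and 1 at the DC mean, the mean of the DC + Lixi animals stood at 0.64 for Fos, 0.94 for Jun, 0.77 for Junb and 0.22 for Egr1. The value of Egr1 rested on 1 animal and on the scale: without animal 401 it was -0.14, and the fitted fold changes against NC put it at 0.66. For the other 3 genes the values without animal 401 were 0.55, 1.09 and 0.78, and those from the fitted fold changes 0.67, 0.93 and 0.81. These places are descriptions, and their order was not tested.

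The treated animals did not hold the same place for all genes. Animal 418 stood at NC for Fos (-0.04) and near it for Junb (0.15), beyond DC for Jun (1.30) and below NC for Egr1 (-0.51). Animal 401 was beyond DC for Fos (1.08) and Egr1 (1.99) but near NC for Jun (0.20). Animals 388 and 428 were near DC for Fos, Jun and Junb and well below NC for Egr1, at -1.16 and -0.89. Animal 419 was at DC for Jun and Egr1, at 0.42 for Fos and at 0.24 for Junb. Animal 403 stood between 0.83 and 1.37 for all 4 genes and was the only treated animal near or beyond DC throughout.

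**Figure D3:**
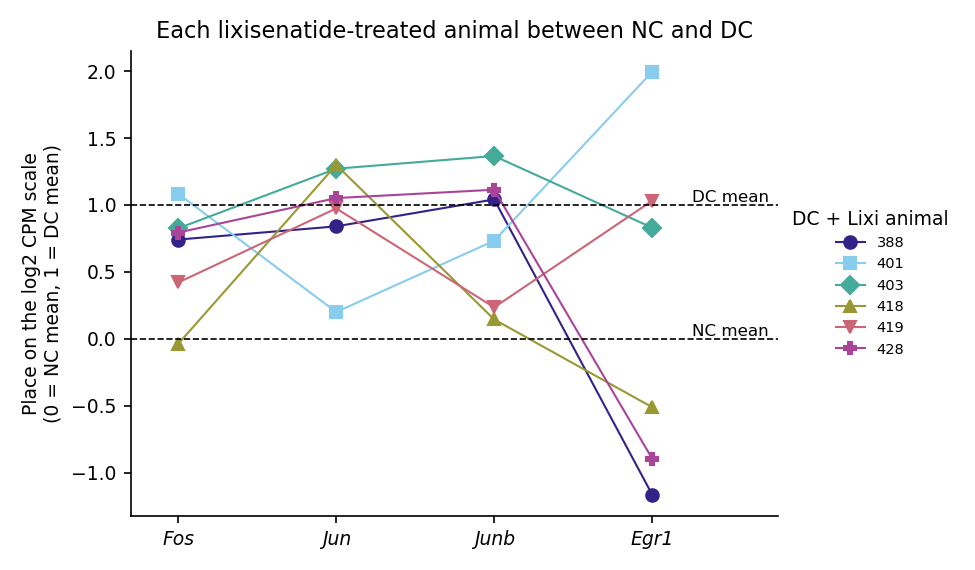
Place of each of the 6 DC + Lixi animals between the NC mean (0) and the DC mean (1) on the log2 CPM scale, for each gene, with a line joining the genes of 1 animal. The places spread from -1.16 to 1.99 for Egr1 and from 0.20 to 1.30 for Jun.

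Levels of different genes were compared per length, in FPKM (counts scaled to gene length and library size). In NC, Jun was the most abundant of the 4, at 19.4 to 88.1 FPKM, and did not overlap with any other. Junb followed at 6.26 to 6.81 FPKM and Egr1 at 3.82 to 8.73 FPKM, which overlapped with each other. Fos had the lowest median, with a range of 2.59 to 4.68 FPKM, below Junb in all 6 animals but overlapping with Egr1. Jun thus came first and Fos below Junb, while the range of Egr1 overlapped with those of both Junb and Fos.

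In DC the levels of the 4 genes came closer to each other, while the ranges of Fos, Junb and Egr1 widened and that of Jun narrowed. Jun stood at 16.1 to 30.8 FPKM, Junb at 9.73 to 19.4, Fos at 8.32 to 21.7 and Egr1 at 7.14 to 38.2, and all 4 ranges overlapped. Jun nevertheless exceeded Fos and Junb within each DC animal, and exceeded Egr1 in 4 of 6. In DC + Lixi, Jun stood at 16.5 to 33.7 FPKM, Junb at 7.11 to 17.1, Fos at 3.35 to 12.5 and Egr1 at 1.77 to 34.2. Over all 18 libraries, Jun was above Fos in 18, above Junb in 17 and above Egr1 in 15. By mean FPKM in NC, 11.5% of the genes tested were higher than Jun and 67.3% higher than Fos. In DC these shares were 27.7% and 42.1%.

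Since Fos and Jun moved in opposite directions, their ratio within a library was also described. The ratio was chosen after their values were seen and was not tested. It sets a gene called higher in DC over one called lower, so a gap between NC and DC restates those calls. How many other pairs of genes separate the groups was not counted. Fos over Jun in FPKM had a geometric mean of 0.0883 in NC, with values from 0.0391 to 0.186. It was 0.577 in DC, with values from 0.489 to 0.705, and 0.359 in DC + Lixi, with values from 0.203 to 0.562. The DC and DC + Lixi ratios thus lay above all NC ratios, by 6.53-fold and 4.06-fold in the mean, and DC overlapped with DC + Lixi. DC 425, with the highest Fos and the highest Jun of its group, also had the highest ratio of DC, at 0.705. It was close to the next animal, DC 396, at 0.686.

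Junb over Jun is likewise a ratio of RNA in whole retina, and the proteins were not measured. This ratio too was chosen after the values were seen and was not tested. It also sets a gene called higher in DC over one called lower. Its geometric mean was 0.162 in NC (0.0744 to 0.327), 0.653 in DC (0.603 to 0.779) and 0.532 in DC + Lixi (0.314 to 1.02). It was 4.05-fold higher in DC than in NC without overlap, and 3.29-fold higher in DC + Lixi than in NC, where animal 401 at 0.314 fell below NC 437 at 0.327. In DC the 6 ratios lay close together, while in DC + Lixi animal 403 was the only one of the 18 libraries with more Junb than Jun per length.

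**Figure D4:**
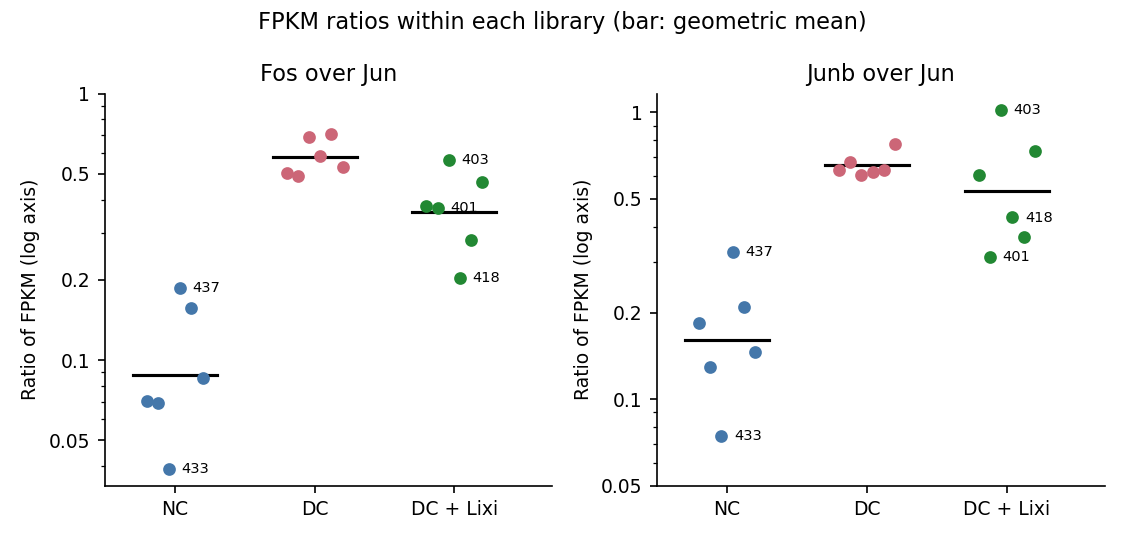
Ratio of FPKM within each library for Fos over Jun and for Junb over Jun (log axis), with 1 point per animal and a bar at the geometric mean. All DC points lie above all NC points in both panels, and the DC + Lixi points spread more widely than the DC points.

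The 4 genes differed in how much animals of 1 group varied. In NC the SD of log2 CPM was 0.05 for Junb, 0.29 for Fos, 0.56 for Egr1 and 0.71 for Jun, beside a median of 0.13 over all genes. For Junb, 91.0% of all genes had a larger SD in NC, and for Jun 3.43%. In DC the SDs were 0.37 for Junb, 0.50 for Fos, 0.90 for Egr1 and 0.35 for Jun, and in DC + Lixi 0.51, 0.68, 1.70 and 0.39. Egr1 in DC + Lixi was exceeded by 0.648% of all genes. Egr1 thus had the largest SD of the 4 in DC and in DC + Lixi, and Jun in NC. The order in NC rested on NC 433, since without it the SD was 0.53 for Jun and 0.62 for Egr1. These differences in spread were not tested. The biological coefficients of variation from edgeR's per-gene dispersion estimates were 0.318 for Fos, 0.322 for Jun, 0.232 for Junb and 0.688 for Egr1. The common value was 0.142.

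Whether the genes varied together among animals of the same group was asked on log2 CPM centred on the group means, over 18 libraries and 6 pairs of genes. Fos and Junb had the highest r at 0.69 (rho 0.62, permutation p = 0.0114 for r, adjusted p = 0.0628, and 0.0161 for rho, adjusted p = 0.0968). Without the 2 libraries farthest from the median of Fos, r was 0.45. Jun and Egr1 had an r of 0.45 (rho 0.42, permutation p = 0.0209 for r, adjusted p = 0.0628, and 0.0709 for rho, adjusted p = 0.213), and 0.60 without the 2 farthest libraries. No pair passed the adjustment, and the lowest r was 0.02, between Junb and Egr1. In DC alone r ran from 0.44 to 0.93 over 6 animals, among them DC 425, the highest for all 4 genes. In NC alone r ran from -0.36 to 0.56, and in DC + Lixi from -0.14 to 0.74. For Fos and Junb it was -0.36 in NC, 0.77 in DC and 0.74 in DC + Lixi, so the r over all groups joins opposite signs.

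RNA integrity was set against each gene in the same way, since it differed between NC and DC. Within groups r was 0.10 for Fos, 0.08 for Jun, 0.19 for Junb and 0.31 for Egr1, and rho was 0.08, 0.18, 0.15 and 0.13 (permutation adjusted p = 0.795 for r and 0.770 for rho in all 4). Without the 2 libraries farthest in RIN, r was 0.16, 0.30, 0.17 and -0.02. Within DC alone the r of RIN was -0.82 with Fos, -0.59 with Jun, -0.43 with Junb and -0.80 with Egr1. Within NC it was 0.10, 0.54, 0.50 and 0.30, and within DC + Lixi 0.31, 0.07, 0.33 and 0.50, each over 6 animals. For Fos the exact permutation p was 0.0444 in DC and 0.539 in DC + Lixi, not adjusted. Jun, Junb and Egr1 in DC had exact permutation p-values of 0.0778 or more. The r over all groups thus joins relations of opposite sign. With RIN as a covariate, the log2 fold changes in DC vs NC were 1.74 for Fos, -1.18 for Jun and 0.93 for Junb. Without it they were 1.79, -1.08 and 1.08. None of the 4 was called with the covariate, as given above for DC vs NC. That fit holds 1 RIN slope for all groups, and NC and DC do not overlap in RIN. RIN and hyperglycemia therefore cannot be told apart by how little these values moved. The log2 fold change of Egr1 in DC vs NC with the covariate was 0.73. Fos and Junb in DC + Lixi vs NC, groups that overlap in RIN, had log2 fold changes of 1.19 and 0.84 with the covariate (edgeR adjusted p = 0.0739 for each).

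**Figure D5:**
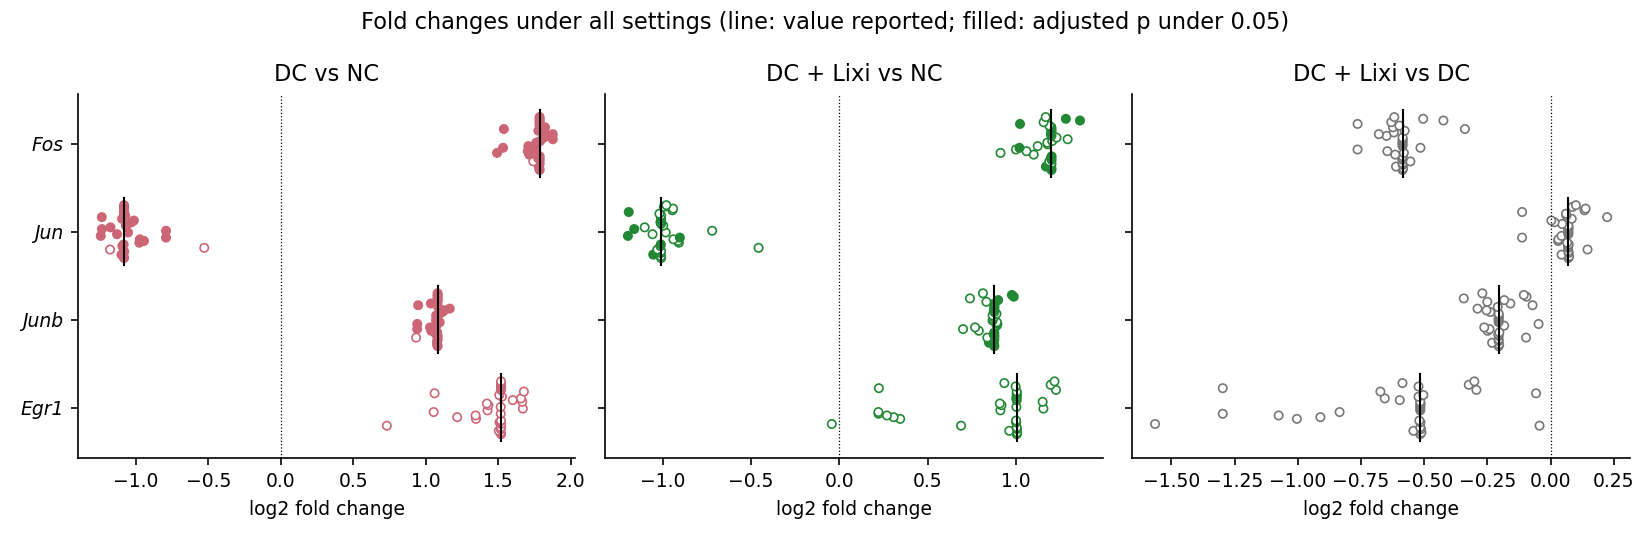
Log2 fold change of each gene in the 3 comparisons under each processing setting and with each library left out, with a vertical line at the value reported and filled points where the adjusted p was under 0.05. Fos, Jun and Junb kept their direction in both comparisons with NC, while the open Egr1 points in DC + Lixi vs NC run down to -0.04.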

How the data were processed

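Total RNA of 18 rat retinae was made into mRNA libraries and sequenced single-end, 1 library per animal (6 NC, 6 DC, 6 DC + Lixi). Following the methods, the authors aligned, quantified and normalized reads with the Array Studio software, whose DESeq2 module served for their own tests (DESeq2 also appears in the submitters' processing notes). Not given in the sources used here are the genome build, the annotation and the strand setting. The authors deposited estimated counts per gene, not normalized, of which 26.5% above 0 are not whole. FPKM values, scaled by the authors for gene length and depth, were deposited too. The deposited sample sheet gives alignments, RNA concentration, the A260 to A280 ratio (both not used in any test) and the RNA integrity number, a score.

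The design foresaw whole counts, so the estimated counts were rounded. Of 587214 cells 46805 hold no count, and 42724 of these have an FPKM of 0. Counts were restored from FPKM in 1504 cells, and in 2577 cells the gene had no count that could give the scale. Analysis used R 4.3.3 with edgeR 4.0.16: filterByExpr over 3 groups, TMM scaling (factors 0.967 to 1.046), and the quasi-likelihood test in 1 fit across all genes with 15 residual degrees of freedom. P-values were adjusted by Benjamini-Hochberg over the 16524 genes tested, and a call is an adjusted p under 0.05. CPM are counts scaled to library size (per 1e6 counts), and log2 CPM used a prior count of 2. Intervals are 95% intervals from the fit. Alternatives were RLE factors, total counts only, no filter, robust estimation, the RNA integrity number as a covariate, missing counts as 0, only the groups compared, DESeq2 1.42.0, limma-voom (limma 3.58.1), limma on log2 FPKM after adding 1 or 0.1, and each library left out. The fits without NC 433 and DC + Lixi 401, and without DC 425 and DC + Lixi 401, were added after seeing the data. Correlations were permuted within groups, 100000 times or exactly, two-sided, with scipy 1.17.1. The edgeR test of DC vs NC was tried on simulated counts, and the other steps were not.

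The members, lists and comparisons were chosen with earlier results of these data known. Genes to be named were the 4 members and, of the others, the 2 gene numbers with the highest mean r over the members. The files give gene numbers without symbols, and the symbols of the 4 members could not be checked against a table. Lists of partner factors, rapid response genes and cell type markers were not applied, since 0 gene numbers of the files are in the reference gene table. Batches, dates and the order and time of day of sampling were not used, as neither labels nor methods state them.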

Additional observations from a re-analysis of the deposited data

Results flagged for a closer look

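In 4 of 12 groups of 6 animals (4 genes in 3 groups), the highest animal stood apart from the others by more than Dixon's 95% critical value for 6 values, on the CPM scale. The gap to the next animal, as a share of the whole range, was 0.6741 for Fos in DC 425, 0.6819 for Egr1 in DC 425, 0.6695 for Jun in DC + Lixi 401 and 0.6282 for Egr1 in DC + Lixi 401. On log2 CPM the same gaps were 0.556, 0.477, 0.582 and 0.305, and 0 of the 12 groups passed the critical value, so that these flags hold on the linear scale alone. About 5% of groups would be flagged by chance, and the genes of 1 animal are not independent of each other. DC 425 had the lowest alignment count of all libraries and the lowest RIN of DC (9.2), and DC + Lixi 401 had the highest alignment count and a RIN of 9. The part of depth and RIN in these levels was not tested. Without both animals, the log2 fold changes of Fos and Junb in DC vs NC were 1.53 and 0.94, both called (edgeR adjusted p = 0.000295 and 0.00274), and that of Egr1 was 1.06, not called (adjusted p = 0.119).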

How the results depend on the processing

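In DC vs NC, Fos, Jun and Junb kept their direction in all settings and their calls in all 18 fits without 1 library (edgeR adjusted p 0.000565 to 0.00414, 0.00546 to 0.0355 and 0.00150 to 0.00723). With RIN as a covariate Fos (log2 fold change 1.74), Jun (-1.18) and Junb (0.93) lost their calls, 0 of 4 genes were called, and RIN separates NC from DC without overlap. Leaving missing counts at 0, which sets the highest Jun and Egr1 values of NC and DC + Lixi to 0, moved Jun in DC vs NC to -0.53 (not called) and Egr1 in DC + Lixi vs NC to -0.043. Egr1 in DC vs NC was called with only the groups compared (1.51), and ran from 1.06 to 1.68 without 1 library.

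In DC + Lixi vs NC, calls depended on the setting, and the cause was not tested. Fos was not called with robust estimation (1.20), RIN (1.19), limma-voom (1.10), log2(FPKM + 1) (0.91), log2(FPKM + 0.1) (1.06) or without NC 433 and DC + Lixi 401 (1.00). Junb was not called with RIN (0.84), limma-voom (0.79), log2(FPKM + 1) (0.70), log2(FPKM + 0.1) (0.77) or without NC 433 and DC + Lixi 401 (0.89). Jun was called with total counts (-1.05), DESeq2 (-1.01), without NC 433 and DC + Lixi 401 (-0.90) and without DC 425 and DC + Lixi 401 (-1.20). The genes called numbered 1 with robust estimation, 0 with RIN, limma-voom and both FPKM settings, and 1 without NC 433 and DC + Lixi 401. Leaving out 1 library gave 0 to 3 of the 4 genes as called, with Fos at 1.02 to 1.36, Junb at 0.74 to 0.99 and Jun at -1.19 to -0.72. Fos and Junb lost their calls without any 1 of the NC animals, DC 386, DC + Lixi 388, 403 or 428. Jun in DC + Lixi vs DC, at 0.07, ran from -0.11 (without DC + Lixi 401) to 0.22, and was -0.11 without NC 433 and DC + Lixi 401. Egr1 in DC + Lixi vs DC moved from -0.52 to -1.30 without DC + Lixi 401. Over all genes, the calls in DC + Lixi vs NC numbered 254, with 835 by DESeq2, 116 by limma-voom and 45 with RIN. Leaving out 1 library moved this count from 27 (without DC + Lixi 428) to 611 (without DC + Lixi 401). It was 27 to 122 without NC 431, 432, 433, 438 or 439, DC 386 or DC + Lixi 388, 403 or 428, and 402 to 611 without DC 425 or DC + Lixi 401 or 419. In DC vs NC the count of 2652 ran from 1485 (without DC 430) to 3531 (without DC 425). No paired analysis was possible because the animal numbers differ between groups. With 6 animals a group, a difference whose interval holds 0 could not be told from none, and the p-values cover animals of 1 experiment.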

Other observations

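Of 16520 other genes, those most like the 4 genes by mean Pearson r of log2 CPM over the 18 libraries were ENSRNOG00000001603 (mean r 0.49) and ENSRNOG00000014350 (mean r 0.47). ENSRNOG00000001603 had an r of 0.84 with Fos, 0.74 with Junb, 0.65 with Egr1 and -0.29 with Jun, and averaged 11.7 ± 0.521 CPM in NC, 14.7 ± 0.894 in DC and 12.5 ± 0.718 in DC + Lixi (SD, n = 6 each). ENSRNOG00000014350 had an r of 0.82 with Egr1, 0.64 with Fos, 0.40 with Junb and 0.03 with Jun, and averaged 6.07 ± 2.21, 12.8 ± 5.79 and 5.78 ± 3.23 CPM. These correlations include the differences between groups.

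Each animal was also placed between NC and DC by the median over the genes called in DC vs NC, with the animal itself left out of the fit for NC and DC animals. DC 425 stood at 0.320, where the other DC animals stood at 0.786 to 1.36, and DC + Lixi 401 stood at 0.171, the lowest of its group. The animals with the highest Fos and Egr1 of their groups thus stood nearest to NC over the called genes. Within DC, Egr1 had an r of -0.96 with this place (exact permutation p = 0.00556, adjusted over 8 relations 0.0444) and a rho of -0.83 (exact p = 0.0583, adjusted 0.363), with r -0.82 without the 2 animals farthest from the median place. Each DC animal was placed over its own called genes, 1482 (DC 430) to 3521 (DC 425), so the scales differed. RIN also had an r of -0.80 with Egr1 within DC (exact permutation p = 0.0778, not adjusted), and its part was not tested. The other 7 relations with place had adjusted p-values of 0.270 or more for r. Within DC + Lixi, Egr1 had an r of -0.60 and Junb of 0.77 (exact permutation p = 0.168 and 0.101).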
